A study of Mus musculus with 10 samples.

Results

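In mouse CD8 T cells recovered from tumours, 10 cytokine genes of effector T cells were followed: Ifng, Tnf, Lta, Ltb, Il2, Csf2, Csf1, Il10, Tgfb1 and Il16. They were taken by gene symbol from the GENCODE M21 annotation, with estimated reads summed over the transcripts of each gene, and they are 10 of the 54337 genes in the tables. The cells carried a T cell receptor for the tumour antigen P1A, which the P511 mastocytoma, a mast cell tumour line, presents. After 24 h of activation they received a retroviral vector, and 24 h later they were transferred into tumour-bearing Rag1-/- B10D2 mice, hosts that lack T and B cells of their own. CD8 T cells were sorted from the tumours 7 days after transfer. The eGFP control group (3 libraries) carried an empty vector with the eGFP reporter. The NFAT5 group (3 libraries) carried NFAT5, a member of the NFAT family that responds to osmotic stress. The CA-RIT NFAT1 group (4 libraries) carried a constitutively active NFAT1 altered so that it pairs poorly with the AP-1 factors. The strain label reads C57BL/6 for every library, and the labels give no age or number of mice, nor whether libraries of a group come from separate mice, so the p-values measure the spread between libraries, which may be technical.

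Calcium signals after T cell receptor engagement send NFAT1 to the nucleus, where it binds cytokine promoters alone or beside AP-1 and NF-kB. Interferon gamma and tumour necrosis factor are the main effector cytokines of cytotoxic T cells, interleukin 2 is the growth factor of freshly activated cells, and GM-CSF acts on myeloid cells. Exhausted T cells in tumours commonly lose interleukin 2 first and keep some interferon gamma, while interleukin 10 and TGF-beta restrain other immune cells.

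The 8 libraries used for the tests held 18.8 to 36.6 M estimated reads, and the T cell gene Cd8a lay between 582 and 988 CPM (reads of a gene per 1000000 reads of the library) in them. Library eGFP control 7 held 51112 reads and none from Cd8a, and library CA-RIT NFAT1 10 held 1 Cd8a read of 32.5 M, which goes against its label as sorted CD8 T cells, so both were set aside. The set-aside CA-RIT NFAT1 library had 1859 CPM of Cpa3, a mast cell protease, against 11.8 to 66.1 in the 8. Library eGFP control 3 also stood apart, since 497 of the 9302 genes that averaged at least 5 CPM in the other 7 had no read in it (5.34%), against at most 0.204% in each of those 7. It was kept, and fold changes of the tested members are also given without it, which leaves eGFP control 6 as the lone control. Nfat5 lay at 48.0 to 87.0 CPM with the NFAT5 vector and at 1.12 to 10.7 CPM in the other 5 of the 8 libraries. Nfatc2, the gene of NFAT1, did not set the CA-RIT NFAT1 libraries apart, at 88.8, 63.5 and 30.0 CPM in CA-RIT NFAT1 2, 4 and 9, 70.0, 42.3 and 36.6 in NFAT5 1, 5 and 8, and 4.00 and 47.3 in eGFP control 3 and 6. Library CA-RIT NFAT1 9 lay below eGFP control 6 and every NFAT5 library in it, so the group is named as labelled, without support from this gene. Only 2 eGFP control libraries therefore stand behind each comparison with the control.

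Promoters of 5 members are printed because the vectors supply factors of the NFAT family, whose core recognition letters are GGAAA. Each run is the 250 bases before the RefSeq start site on GRCm38.p6, 5′ to 3′ on the strand of the gene, with GGAAA or its reverse complement TTTCC in capitals. Tnf (chr17:35202008-35202257, minus strand) and Csf2 (chr11:54249900-54250149, minus strand) are the members with the largest fold changes with NFAT5. Ifng (chr10:118440796-118441045, plus strand) is the hallmark cytokine of these cells, Il2 (chr3:37125955-37126204, minus strand) is a textbook NFAT target, and Tgfb1 (chr7:25686752-25687001, plus strand) holds no core in this window.
Tnf: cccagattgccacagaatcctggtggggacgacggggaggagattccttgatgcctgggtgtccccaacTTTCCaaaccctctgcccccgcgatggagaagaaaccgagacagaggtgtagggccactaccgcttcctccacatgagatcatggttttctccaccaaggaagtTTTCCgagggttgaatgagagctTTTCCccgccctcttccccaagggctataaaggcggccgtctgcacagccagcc
Csf2: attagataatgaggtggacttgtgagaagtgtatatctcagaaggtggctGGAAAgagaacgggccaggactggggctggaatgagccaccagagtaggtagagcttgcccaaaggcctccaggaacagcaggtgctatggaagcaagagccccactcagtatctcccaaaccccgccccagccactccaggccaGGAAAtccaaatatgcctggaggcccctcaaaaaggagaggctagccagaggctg
Ifng: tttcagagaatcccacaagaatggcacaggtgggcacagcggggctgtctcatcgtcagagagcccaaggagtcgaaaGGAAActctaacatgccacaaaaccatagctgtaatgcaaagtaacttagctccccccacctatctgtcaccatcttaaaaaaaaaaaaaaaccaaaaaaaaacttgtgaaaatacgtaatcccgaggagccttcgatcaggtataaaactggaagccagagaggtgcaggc
Il2: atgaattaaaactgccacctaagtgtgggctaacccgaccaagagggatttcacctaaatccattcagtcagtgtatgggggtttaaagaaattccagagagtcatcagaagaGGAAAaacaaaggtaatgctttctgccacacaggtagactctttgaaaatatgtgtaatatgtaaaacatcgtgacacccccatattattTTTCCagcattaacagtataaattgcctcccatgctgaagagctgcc
Tgfb1: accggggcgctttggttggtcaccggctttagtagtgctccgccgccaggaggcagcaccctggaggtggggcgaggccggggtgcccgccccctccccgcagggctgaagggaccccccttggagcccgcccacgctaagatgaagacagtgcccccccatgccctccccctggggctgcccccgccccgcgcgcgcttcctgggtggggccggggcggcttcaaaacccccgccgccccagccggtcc
The Tnf window holds 3 cores, which begin 181, 77 and 54 bases before the start. Csf2 has 2, at 200 and 55 bases, Il2 has 2, at 137 and 47 bases, and Ifng has 1, at 172 bases. The Csf2 window ends at a RefSeq start that lies 232 bases outside the GENCODE gene start. RefSeq windows were found for 9 of the 10 members, Il10 being the missing entry, and 10 of their 11 windows hold at least 1 core on either strand. So do 55.6% of the 32851 windows of all genes, and 6.39% of all windows hold 3 or more. The longer TGGAAA, used for NFAT5, overlaps the core by its last 5 letters and occurs once each in the Tnf, Il2 and Csf2 windows and in 1 of the Il16 windows. It occurs in 18.6% of all windows, counted on either strand. These matches are letters in a window, and no binding was measured.

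On the length-corrected scale of TPM (transcripts per 1000000 transcripts), the 10 genes spanned a wide range of levels. By the median of the 8 libraries, Ltb came first at 598 TPM, followed by Ifng at 411, Tgfb1 at 87.6, Il16 at 54.7, Tnf at 33.6, Il10 at 11.4, Csf2 at 2.99, Csf1 at 2.10, Lta at 2.07 and Il2 at 0.0429. Neighbours in this order overlapped between libraries, except for the step from Ifng, with at least 313 TPM in each library, to Tgfb1, with at most 111 TPM. Ifng and Ltb together made up 93.9% and 84.7% of the summed TPM of the 10 genes in eGFP control 3 and 6, 81.6%, 77.5% and 72.9% in NFAT5 1, 5 and 8, and 86.3%, 77.7% and 82.7% in CA-RIT NFAT1 2, 4 and 9. The remainder was mostly Tgfb1, Il16 and Tnf. Il10 held more than Tnf in eGFP control 3 (1.57% against 0.709%) and eGFP control 6 (1.90% against 0.802%). It also did so in CA-RIT NFAT1 2 (1.30% against 1.23%).

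**Figure D1:**
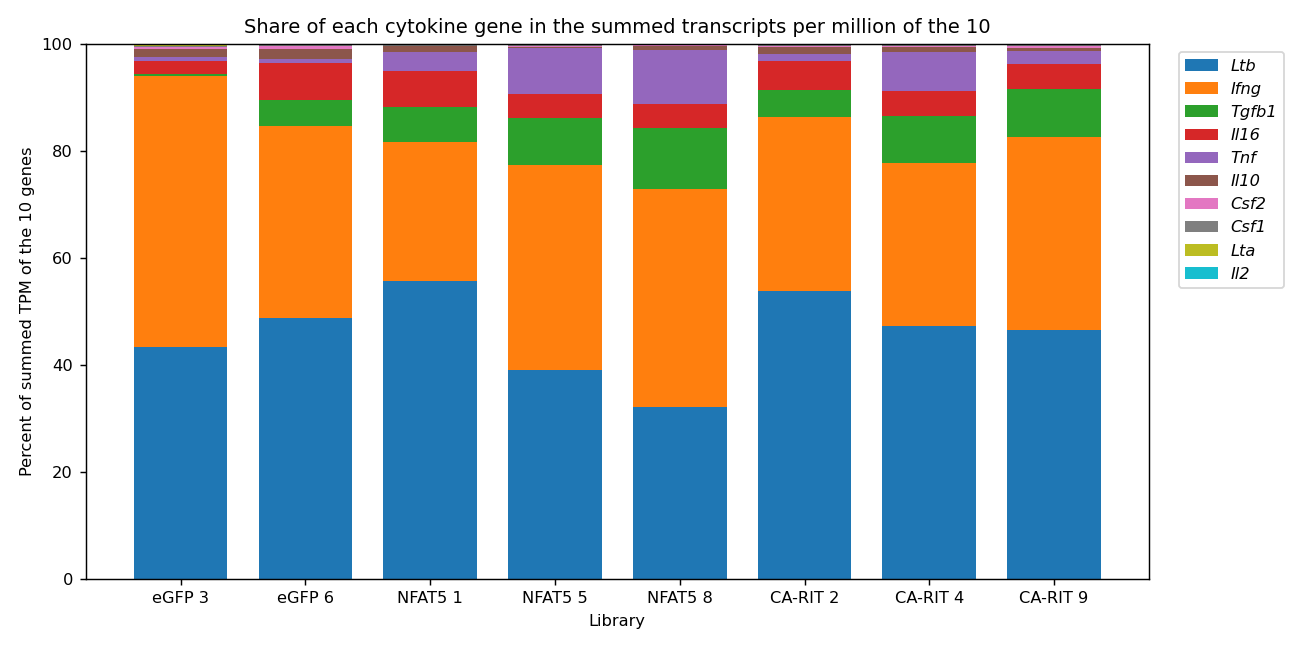
Share of each of the 10 genes (colours) in their summed TPM, in percent, for the 8 libraries on the horizontal axis. Ifng and Ltb fill 72.9% to 93.9% of each bar, and Tnf is widest in NFAT5 5, NFAT5 8 and CA-RIT NFAT1 4.

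None of the 9 members that passed the low-count filter passed an adjusted p of 0.05 in edgeR's quasi-likelihood test of NFAT5 against eGFP control, CA-RIT NFAT1 against eGFP control or CA-RIT NFAT1 against NFAT5, or in the test for any difference between the 3 groups. The same holds for all 14473 genes tested (0% called in each of the 4 tests). At an unadjusted p below 0.05 with NFAT5, 1 member was higher (Tnf; 3.25% of all genes) and 4 were lower (Ifng, Ltb, Csf2 and Il10; 4.01% of all genes) than in the control. With CA-RIT NFAT1, 1 was higher (Tnf; 3.28%) and 2 were lower (Ifng and Il10; 3.16%), and between the vectors there were 0 in either direction (0.788% of genes higher and 0.339% lower). In the test for any difference between groups, 4 members had an unadjusted p below 0.05 (Ifng, Tnf, Csf2 and Il10; 4.06% of all genes). These counts depend in part on eGFP control 3. Without it, log2 fold changes with NFAT5 were -0.22 for Ifng and -0.45 for Ltb. They were 3.00 for Tnf, -2.30 for Csf2 and -1.69 for Il10. With CA-RIT NFAT1 they were -0.19 for Ifng, 2.07 for Tnf and -1.07 for Il10. Over all genes, 1051, 932 and 163 had an unadjusted p below 0.05 in the 3 comparisons. DESeq2 called 104, 60 and 1 genes in the same order and 38 in the test for any difference, and limma voom called 0 in each. Of the members, DESeq2 called Tnf alone, in NFAT5 against control.

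A simpler count asks whether the libraries of a pair of groups fail to overlap. NFAT5 libraries all lay above both controls for 2 members (Tnf and Tgfb1; 14.2% of all genes) and all below for 3 (Ltb, Csf2 and Il10; 8.15%). CA-RIT NFAT1 libraries all lay above for the same 2 members (14.2%) and all below for 2 (Csf2 and Il10; 6.7%). Between the vectors, CA-RIT NFAT1 was above NFAT5 throughout for Csf2 (4.06%) and below for 0 members (2.77%). The median log2 fold change of the tested members was -0.70, -0.37 and 0.20 in the 3 comparisons, beside 0.08, 0.10 and 0.00 for all genes. The comparisons with eGFP control share the same control libraries.

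**Figure D2:**
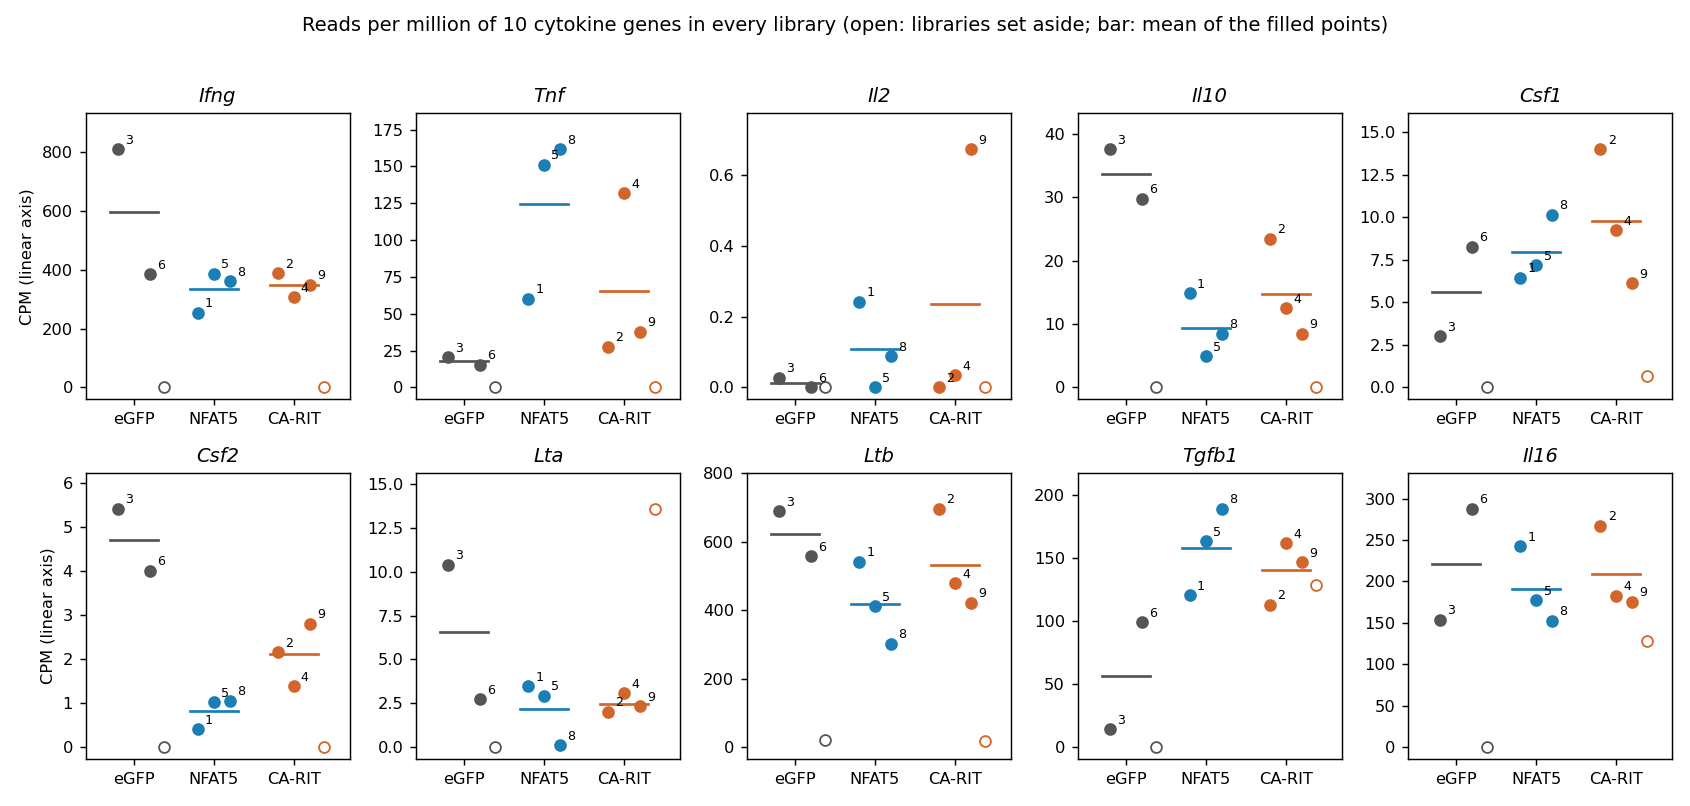
CPM of each gene (linear axis) in every library, numbered, by vector group. Filled points are the 8 tested libraries, bars their group means, and open points the set-aside libraries eGFP control 7 and CA-RIT NFAT1 10. NFAT5 and control points do not overlap for Tnf, Tgfb1, Ltb, Csf2 and Il10.

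Tnf encodes tumour necrosis factor, a cytokine made as a membrane protein and released by shedding. Its gene (ENSMUSG00000024401) lies at chr17:35199381-35202007. Tnf lay at 20.7 and 15.4 CPM in eGFP control 3 and 6, at 60.2, 151 and 162 in NFAT5 1, 5 and 8, and at 27.5, 132 and 37.7 in CA-RIT NFAT1 2, 4 and 9. All 6 vector libraries were above both controls, and the CA-RIT NFAT1 group split into library 4, at the level of NFAT5, and the other two near the control. The group means were 18.0 ± 3.72 (SD, n = 2), 124 ± 55.8 (SD, n = 3) and 65.7 ± 57.4 CPM (SD, n = 3). With NFAT5 the log2 fold change was 2.68 ± 0.78 (SE; edgeR, adjusted p = 0.654), and DESeq2 gave 2.66 with an adjusted p of 0.0278. With CA-RIT NFAT1 it was 1.75 ± 0.75 (edgeR, adjusted p = 0.679), and it was 0.71 without CA-RIT NFAT1 4. Without eGFP control 3 the values were 3.00 and 2.07, and over all 10 libraries 2.72 and 1.37. The difference between the vectors, -0.93 ± 0.63, had an edgeR adjusted p of 1.00. In sorted bulk cells, fewer cells of a type and less RNA per cell cannot be told apart, for Tnf and for every gene below.

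Set against Ifng of the same library, Tnf amounted to 1.40% and 2.23% of the Ifng TPM in the controls. It amounted to 13.7%, 22.2% and 25.0% with NFAT5, and to 3.79%, 24.2% and 6.23% with CA-RIT NFAT1. No NFAT5 or CA-RIT NFAT1 library overlapped the controls in this ratio, which is free of library scaling. It reuses the Tnf and Ifng values that are each compared with the controls, so it is not separate support. Ifng stood at 813 TPM in eGFP control 3 and at 454 TPM in eGFP control 6, which lowers the ratio in eGFP control 3. Of the Tnf reads, 81.6% to 97.4% were assigned to Tnf-201, the longer of its 2 transcripts.

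Interferon gamma, the macrophage-activating cytokine of cytotoxic T cells, went the other way on average. Ifng (ENSMUSG00000055170, chr10:118441046-118445892) lay at 811 and 384 CPM in eGFP control 3 and 6, at 254, 387 and 362 in NFAT5 1, 5 and 8, and at 388, 306 and 349 in CA-RIT NFAT1 2, 4 and 9. Only eGFP control 3 was high, and eGFP control 6 lay within the span of the vector libraries. The log2 fold changes were -0.96 ± 0.35 with NFAT5 (SE; edgeR, adjusted p = 0.654) and -0.93 ± 0.35 with CA-RIT NFAT1 (adjusted p = 0.679). Without eGFP control 3 they were -0.22 and -0.19. Without eGFP control 6, where eGFP control 3 is the lone control and is assumed to vary like the other groups, they were -1.44 and -1.40 with edgeR adjusted p of 0.0074 and 0.0082. The vectors differed by 0.03 ± 0.32, and over 10 libraries the 3 values were -0.61, -0.99 and -0.39. Ifng-201, the coding transcript, took 93.5% to 95% of the reads in each of the 8 libraries.

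Lta and Ltb encode the lymphotoxins, which form a membrane heterotrimer that acts through the lymphotoxin beta receptor. Both flank Tnf on chromosome 17, with 3060 bases between Ltb (ENSMUSG00000024399, chr17:35194439-35196320) and Tnf and 1157 bases between Tnf and Lta (ENSMUSG00000024402, chr17:35203165-35205351). The 3 genes together span 10913 bases. Ltb lay at 690 and 559 CPM in eGFP control 3 and 6, at 542, 412 and 302 in NFAT5 1, 5 and 8, and at 697, 480 and 422 in CA-RIT NFAT1 2, 4 and 9. NFAT5 libraries were all below the controls, with NFAT5 1 just under eGFP control 6, and the CA-RIT NFAT1 libraries overlapped both groups. The log2 fold changes were -0.70 ± 0.30 with NFAT5 (SE; edgeR, adjusted p = 0.654) and -0.37 ± 0.30 with CA-RIT NFAT1 (adjusted p = 0.725). Without eGFP control 3 they were -0.45 and -0.12, and over 10 libraries -0.40 and -0.47.

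Lta had few reads. It lay at 10.4 and 2.71 CPM in eGFP control 3 and 6, at 3.47, 2.93 and 0.0874 in NFAT5 1, 5 and 8, and at 2.02, 3.07 and 2.34 in CA-RIT NFAT1 2, 4 and 9. Library eGFP control 3 was the high point and NFAT5 8 the low point, and the other 6 libraries lay between 2.02 and 3.47 CPM. The log2 fold changes of -1.75 ± 1.21 and -1.56 ± 1.21 against control (SE; edgeR, adjusted p = 0.679 and 0.711) were -0.36 and -0.16 without eGFP control 3, and -1.71 and -0.55 over 10 libraries. Thus of the 3 neighbouring genes, Tnf lay higher and Ltb and Lta lower on average with either vector, and no difference passed the adjusted test in edgeR.

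Il2 encodes the T cell growth factor interleukin 2. Il2 (ENSMUSG00000027720, chr3:37120523-37125959) had 1 and 0 reads in eGFP control 3 and 6, 6, 0 and 2 in NFAT5 1, 5 and 8, and 0, 1 and 19 in CA-RIT NFAT1 2, 4 and 9. CA-RIT NFAT1 9 was the high point, at 0.674 CPM, and no group stood apart. A count of 0 allows up to 0.121 CPM in eGFP control 6, 0.160 in NFAT5 5 and 0.101 in CA-RIT NFAT1 2, which covers counting error only. Il2 did not pass the low-count filter and was not tested.

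Csf2 encodes GM-CSF, which stimulates macrophages, dendritic cells and granulocytes. Csf2 (ENSMUSG00000018916, chr11:54247271-54249667) lay at 5.42 and 4.01 CPM in eGFP control 3 and 6, at 0.403, 1.01 and 1.05 in NFAT5 1, 5 and 8, and at 2.15, 1.38 and 2.80 in CA-RIT NFAT1 2, 4 and 9. The 3 groups did not overlap at all, with the control highest, CA-RIT NFAT1 between and NFAT5 lowest. How many of all genes part all 3 groups was not computed. These levels rest on 198 and 99 reads, on 10, 19 and 24 reads, and on 64, 40 and 79 reads in the same order. The log2 fold change was -2.62 ± 0.81 with NFAT5 (SE; edgeR, adjusted p = 0.654) and -1.29 ± 0.79 with CA-RIT NFAT1 (adjusted p = 0.679). Leaving out each library in turn gave -2.88 to -2.28 and -1.56 to -0.97. The vectors differed by 1.33 ± 0.73 (edgeR, adjusted p = 1.00). Without eGFP control 6, which leaves eGFP control 3 as the lone control, the NFAT5 value was -2.88. Over 10 libraries the 3 values were -2.57, -1.66 and 0.91.

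Csf1 encodes M-CSF, the survival factor of macrophages. Csf1 (ENSMUSG00000014599, chr3:107741048-107760469) lay at 3.01 and 8.26 CPM in eGFP control 3 and 6, at 6.45, 7.20 and 10.1 in NFAT5 1, 5 and 8, and at 14.0, 9.22 and 6.14 in CA-RIT NFAT1 2, 4 and 9. The groups overlapped, with eGFP control 3 lowest and CA-RIT NFAT1 2 highest. The log2 fold changes were 0.42 ± 0.62 and 0.69 ± 0.62 against control (SE; edgeR, adjusted p = 0.840 and 0.745), and they were -0.08 and 0.19 without eGFP control 3, and 0.47 and 0.36 over 10 libraries.

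The transcripts assigned to Csf1 differed between libraries. The longest, Csf1-201, took 97.0%, 100% and 90.9% of the estimated Csf1 reads in NFAT5 1, 5 and 8. It took 49.6%, 97.2% and 50.9% in CA-RIT NFAT1 2, 4 and 9, and 0% and 54.0% in eGFP control 3 and 6. The NFAT5 libraries were all high, CA-RIT NFAT1 4 was like them, and eGFP control 3 had its reads on Csf1-202 (35.3%) and the short Csf1-203 (64.7%). Csf1-202 was listed at 0% in NFAT5 1, 5 and 8 and in CA-RIT NFAT1 4, and at 34.1% to 39.1% in the other 4 libraries. Between 110 and 416 Csf1 reads lay behind these shares, so a share of 0% still allowed 1.42% to 3.37% by the 95% Wilson interval, which takes the assigned reads as counted. Salmon divides reads that fit several transcripts, and intervals for that step were not computed. All 3 are annotated as protein-coding transcripts.

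**Figure D3:**
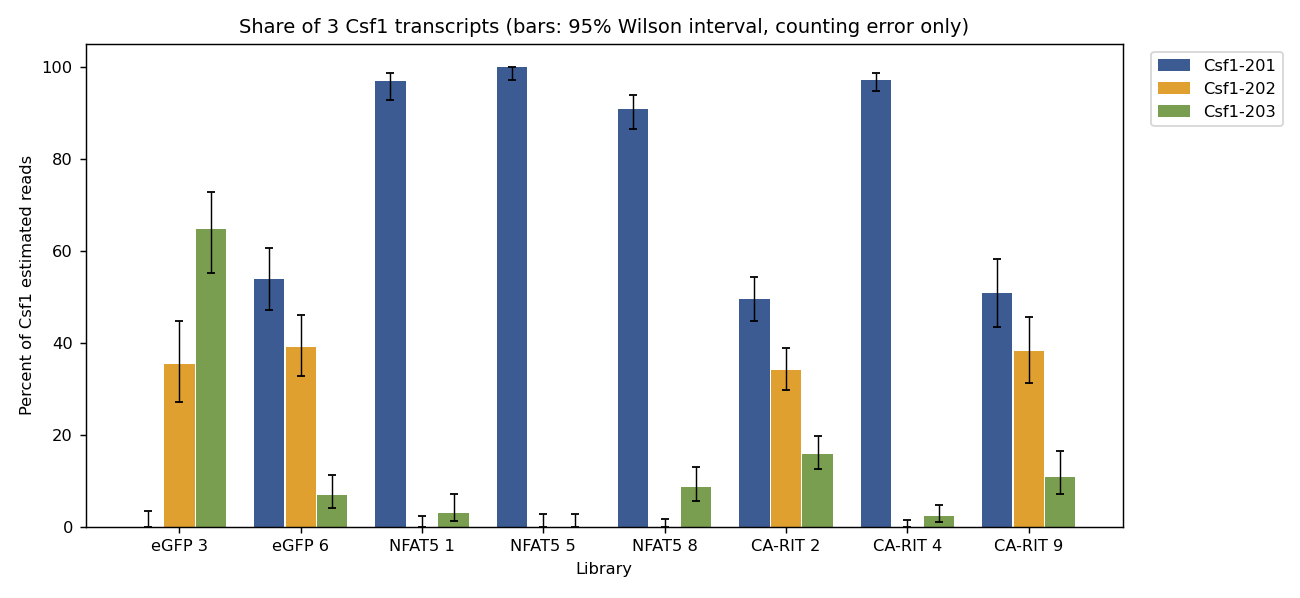
Percent of Csf1 reads assigned to its 3 main transcripts (colours) in the 8 libraries, with 95% Wilson intervals for counting error. Csf1-201 takes at least 90.9% in the NFAT5 libraries and in CA-RIT NFAT1 4, and 0% in eGFP control 3.

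Interleukin 10 restrains macrophages and dendritic cells and is made by strongly stimulated CD8 T cells too. Il10 (ENSMUSG00000016529, chr1:131019845-131024974) lay at 37.6 and 29.8 CPM in eGFP control 3 and 6, at 14.9, 4.96 and 8.48 in NFAT5 1, 5 and 8, and at 23.5, 12.5 and 8.48 in CA-RIT NFAT1 2, 4 and 9. Every vector library was below both controls, and the vector groups overlapped each other. The log2 fold change was -1.96 ± 0.57 with NFAT5 (SE; edgeR, adjusted p = 0.654) and -1.33 ± 0.57 with CA-RIT NFAT1 (adjusted p = 0.679). Without eGFP control 3 the values were -1.69 and -1.07. Without eGFP control 6, which leaves eGFP control 3 as the lone control, they were -2.17 and -1.54. Over 10 libraries they were -1.84 and -1.62.

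TGF-beta 1, the product of Tgfb1, is secreted in a latent complex and restrains T cells once it is activated. Tgfb1 (ENSMUSG00000002603, chr7:25687002-25705077) lay at 14.3 and 99.1 CPM in eGFP control 3 and 6, at 120, 163 and 189 in NFAT5 1, 5 and 8, and at 113, 162 and 147 in CA-RIT NFAT1 2, 4 and 9. All vector libraries were above both controls, but eGFP control 6 lay close below them and eGFP control 3 far below. The log2 fold changes were 1.42 ± 0.65 with NFAT5 (SE; edgeR, adjusted p = 0.654) and 1.24 ± 0.65 with CA-RIT NFAT1 (adjusted p = 0.679). They were 0.65 and 0.47 without eGFP control 3. Without eGFP control 6, which leaves eGFP control 3 as the lone control, they were 3.30 and 3.12. In that fit the median of all genes was itself at 0.45 and 0.49. Over 10 libraries the values were 1.52 and 1.26. Tgfb1-201 took 95% to 97.7% of the reads.

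Il16 encodes a precursor that caspase 3 cuts to release interleukin 16, a chemoattractant that binds CD4. Il16 (ENSMUSG00000001741, chr7:83642825-83745726) lay at 154 and 288 CPM in eGFP control 3 and 6, at 243, 177 and 153 in NFAT5 1, 5 and 8, and at 267, 183 and 176 in CA-RIT NFAT1 2, 4 and 9. Its highest value was 1.89 times its lowest, the smallest such ratio of the 9 tested genes, and the groups overlapped. The log2 fold changes of -0.30 ± 0.31 and -0.19 ± 0.31 (SE; edgeR, adjusted p = 0.767 and 0.857) were -0.62 and -0.52 without eGFP control 3, and turned to 0.14 and 0.26 without eGFP control 6. Over 10 libraries they were -0.08 and -0.15. Il16-203 took 97.3% to 99.0% of the reads.

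**Figure D4:**
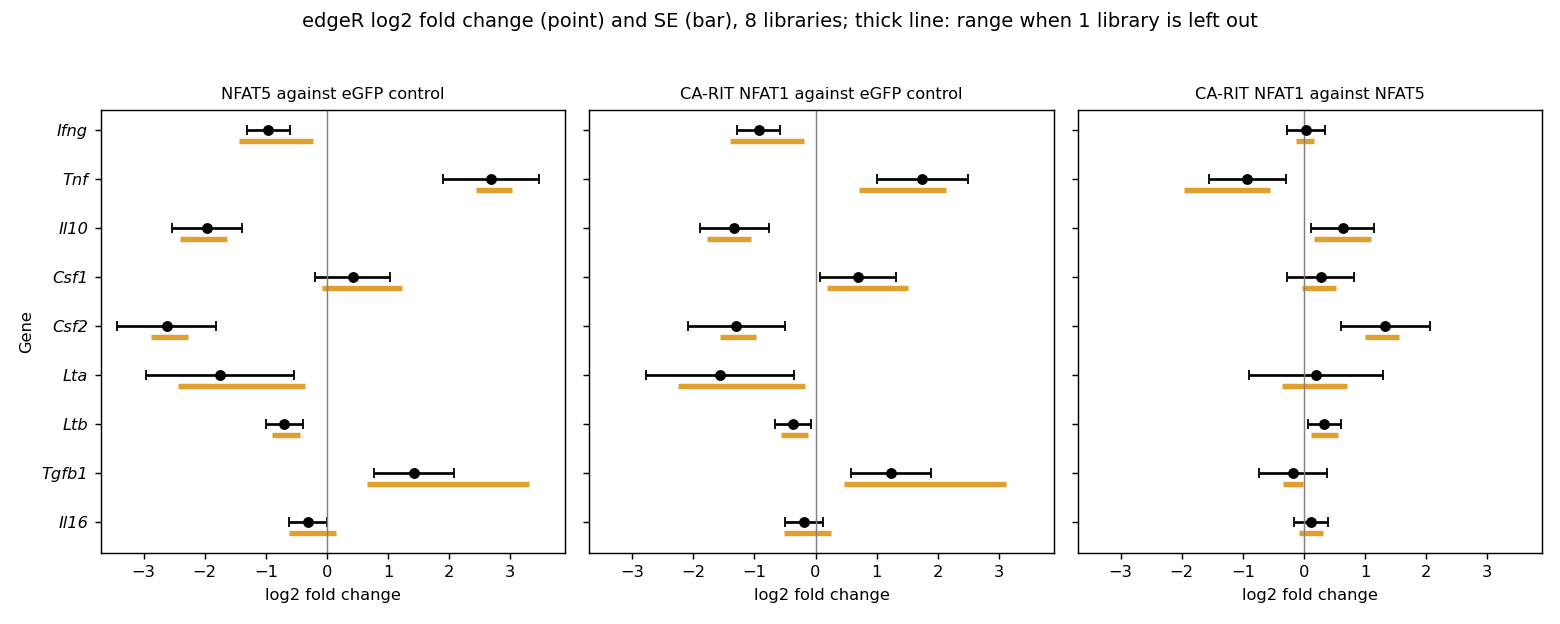
edgeR log2 fold change (points) with SE (thin bars) for the 9 tested genes in the 3 comparisons, over 8 libraries, and the range when each library is left out in turn (thick lines). Tnf, Ifng, Ltb, Lta, Csf2, Il10 and Tgfb1 keep their sign in both comparisons with the control, Csf1 does so with CA-RIT NFAT1 alone and Il16 in neither, and the Tgfb1 range is 0.65 to 3.30 with NFAT5.

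Genes with the most similar profile over the 8 libraries were sought for the 3 members that averaged at least 5 CPM and spanned at least 2 log2 units, among 9297 genes. Likeness was the root mean square difference of log2(CPM + 1) centred on each gene's mean, and the libraries share their depth and makeup in it. Dusp2, a phosphatase of activated MAP kinases, came nearest to Tnf (0.43), followed by Ass1 (0.55), which makes argininosuccinate, and Cyp11a1 (0.57), the first enzyme of steroid synthesis. Dusp2 lay at 559 and 294 CPM in the controls, at 797, 2509 and 2338 with NFAT5 and at 787, 1523 and 841 with CA-RIT NFAT1. Its 3 highest values were in NFAT5 5, NFAT5 8 and CA-RIT NFAT1 4, which its choice by likeness to Tnf favours. Rab40c (0.18), Jmjd4 (0.30) and 4833407H14Rik (0.32) came nearest to Il10. Rab40c lay at 41.6 and 24.0 CPM in the controls, at 12.6, 5.97 and 9.40 with NFAT5 and at 24.1, 11.9 and 9.58 with CA-RIT NFAT1. For Tgfb1 the nearest were Ccnk (0.18), Rbm38 (0.18) and Prr11 (0.21), which had 0.0548, 3.01 and 1.10 CPM in eGFP control 3 and at least 4.65, 33.0 and 10.6 CPM in the other 7 libraries. All 3 share the low point of Tgfb1 in that library, which their choice by likeness to Tgfb1 favours.

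**Figure D5:**
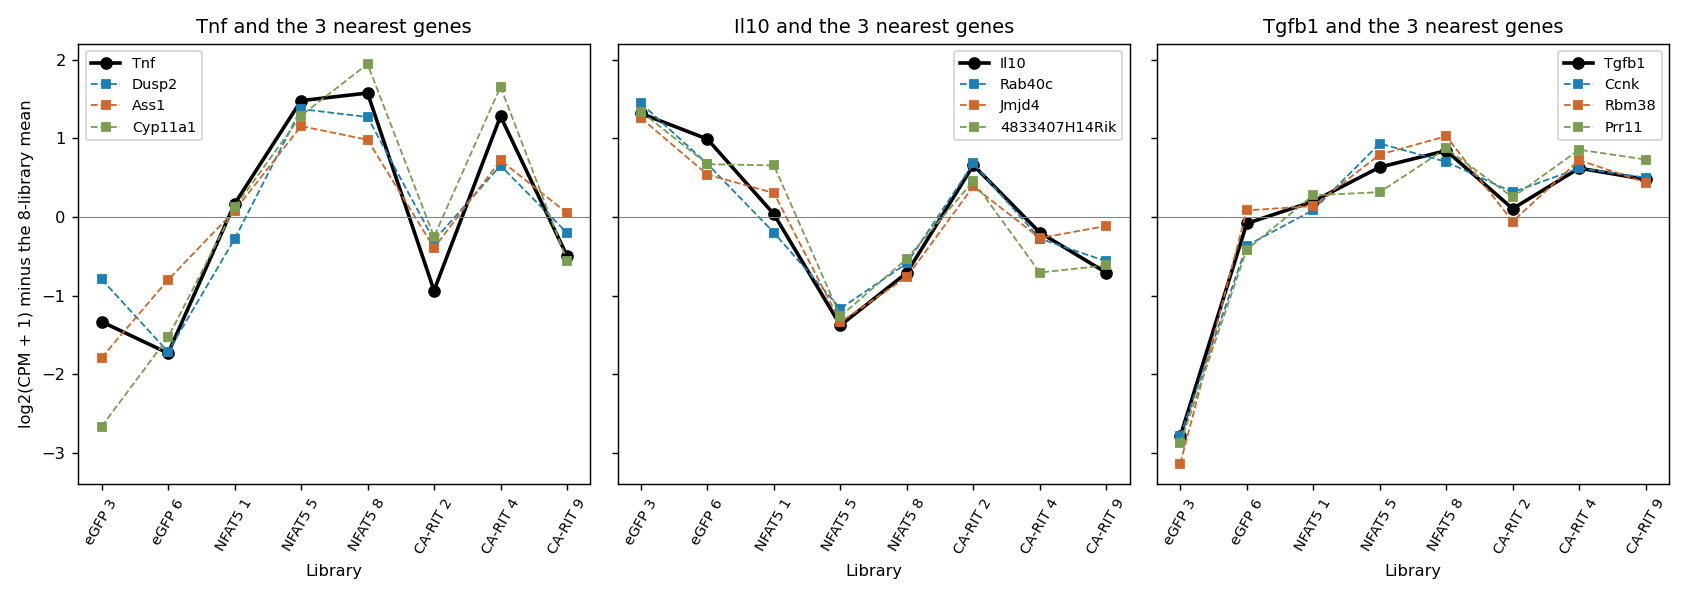
log2(CPM + 1) minus the mean of the 8 libraries for Tnf, Il10 and Tgfb1 (black) and the 3 nearest genes of each (colours). Lines only join the points of a gene. The Tgfb1 panel has its low point at eGFP control 3, and the Tnf panel its peaks at NFAT5 5, NFAT5 8 and CA-RIT NFAT1 4.

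Receptors of these cytokines formed a list of 19 genes, all tested, of which 0 passed an adjusted p of 0.05 in edgeR in any comparison. At an unadjusted p below 0.05, 1 was higher and 2 were lower with NFAT5, 2 were higher and 1 lower with CA-RIT NFAT1, and 2 were higher and 0 lower in CA-RIT NFAT1 against NFAT5. For this list and those that follow, the shares of all genes at that p were 3.25% higher and 4.01% lower, 3.28% and 3.16%, and 0.788% and 0.339% in the same order. DESeq2 called 1 of them (Csf2rb2) in each comparison with the control and limma voom called 0. The median log2 fold changes were 0.21, 0.38 and 0.09. Il2ra, the high-affinity interleukin 2 receptor chain CD25, lay at 79.5 and 32.7 CPM in eGFP control 3 and 6, at 29.9, 20.8 and 25.8 in NFAT5 1, 5 and 8, and at 49.0, 47.4 and 86.3 in CA-RIT NFAT1 2, 4 and 9. NFAT5 libraries were below both other groups. CA-RIT NFAT1 against NFAT5 gave a log2 fold change of 1.24 ± 0.41 (SE; edgeR, adjusted p = 1.00). Il2rg, the common gamma chain, averaged 1277, 938 and 1019 CPM in the control, NFAT5 and CA-RIT NFAT1 groups. Csf2ra, the GM-CSF receptor alpha chain, lay at 18.5 CPM in eGFP control 3 and at 1.28 to 5.07 CPM in the other 7. Csf2rb2, an interleukin 3 receptor chain, lay at 0.0274 and 0 CPM in the controls, at 1.60 to 4.11 with NFAT5, at 0.319 to 3.11 with CA-RIT NFAT1 and at 95.8 in the set-aside CA-RIT NFAT1 library. Ltbr, the lymphotoxin beta receptor, had 0.57, 0.83 and 1.03 CPM in CA-RIT NFAT1 2, 4 and 9 and was at 0 in the other 5.

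Among 35 other cytokine genes, 22 were tested and 0 passed an adjusted p of 0.05 in edgeR. At an unadjusted p below 0.05, 2 were higher and 5 lower with NFAT5 (3.25% and 4.01% of all genes), 2 were higher and 3 lower with CA-RIT NFAT1 (3.28% and 3.16%), and 2 were higher and 0 lower between the vectors. DESeq2 called Tnfsf4 with NFAT5 and Il1b with CA-RIT NFAT1 against control, and limma voom called 0. The medians were -0.55, -0.44 and 0.20 (log2). Tnfsf4, which encodes OX40 ligand, lay at 70.1 and 56.3 CPM in the controls, at 21.3, 17.6 and 23.3 in NFAT5 1, 5 and 8, and at 39.0, 46.0 and 71.5 in CA-RIT NFAT1 2, 4 and 9. NFAT5 was below every other library here, and CA-RIT NFAT1 against NFAT5 gave 1.32 ± 0.31 (SE; edgeR, adjusted p = 1.00). Areg, the growth factor amphiregulin, lay at 24.5 and 5.91 CPM in the controls, at 5.65, 0.96 and 1.79 with NFAT5 and at 38.5, 6.74 and 6.38 with CA-RIT NFAT1. Tnfsf9 (4-1BB ligand) and Tnfsf14 (LIGHT) were high in eGFP control 3, at 92.5 and 37.1 CPM, against 9.91 to 18.6 and 2.11 to 7.52 CPM in the other 7. Il1b had no read in eGFP control 3 or 6, and 0.320 to 1.37 CPM with NFAT5 and 0.505 to 5.00 CPM with CA-RIT NFAT1. In the set-aside CA-RIT NFAT1 library it lay at 271 CPM. The summed level of 14 macrophage and monocyte markers was 223 to 229 CPM in the controls, 101 to 243 with NFAT5 and 193 to 462 with CA-RIT NFAT1, with 7 to 11, 9 to 14 and 11 to 14 of them read. They did not move together, since Lyz2 was at 0 in both controls while Chil3, C1qa, C1qb and C1qc were highest of the 8 in eGFP control 3, at 73.9, 10.95, 10.1 and 13.5 CPM. Their part in the Il1b values was not tested.

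Proteins that process or release cytokines, such as proteases and TGF-beta carriers, gave 14 tested genes of 20, with 0 at an adjusted p of 0.05 in edgeR, DESeq2 or limma voom. At an unadjusted p below 0.05, edgeR had 1 higher with NFAT5 and 1 higher with CA-RIT NFAT1 against control. Of these 14, 13 had a positive log2 fold change with NFAT5 and 13 with CA-RIT NFAT1 against control, beside 53.9% and 54.6% of all genes tested. The medians were 0.34 and 0.53, beside 0.08 and 0.10 for all genes. Ltbp4 and Thbs1 had no read in either tested control, so their sign could only be positive. Rhbdf2, Pcsk7, Itgav and Adam10 lay at 0, 0.329, 2.93 and 25.6 CPM in eGFP control 3. In eGFP control 6 they lay at 48.2, 78.2, 41.5 and 109 CPM. For Furin and Adam17 both controls lay close, as given next. Signs were not counted without eGFP control 3. Furin, the convertase that cuts the TGF-beta precursor, lay at 16.6 and 19.9 CPM in the controls, at 73.9, 53.2 and 16.0 with NFAT5 and at 71.4, 60.4 and 35.7 with CA-RIT NFAT1. It lay at 566 CPM in the set-aside CA-RIT NFAT1 library, and the part of other cells in its values was not tested. The 3 tested CA-RIT NFAT1 libraries were above both controls for Furin, with a log2 fold change of 1.49 ± 0.59 (SE; edgeR, adjusted p = 0.679). Adam17, which sheds tumour necrosis factor, lay at 88.4 and 91.8 CPM in the controls, at 135, 80.5 and 86.2 with NFAT5 and at 94.2, 111 and 83.3 with CA-RIT NFAT1, so its groups overlapped.

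Early target genes of these cytokines, 26 tested of 26, also gave 0 at an adjusted p of 0.05 in edgeR and in limma voom, while DESeq2 called Smad7 with NFAT5. At an unadjusted p below 0.05 in edgeR, 3 were higher and 0 lower with NFAT5, 1 was higher and 3 were lower with CA-RIT NFAT1, and 1 was lower between the vectors. Their medians were -0.09, -0.16 and -0.16. Smad7, a TGF-beta target that blocks the TGF-beta receptor, lay at 11.4 and 10.4 CPM in the controls, at 39.7, 47.4 and 41.1 with NFAT5 and at 42.2, 47.6 and 16.8 with CA-RIT NFAT1. All vector libraries were above the controls, with log2 fold changes of 1.87 ± 0.47 and 1.58 ± 0.46 (SE; edgeR, adjusted p = 0.654 and 0.679), and of 2.02 and 1.74 without eGFP control 3. Tnfaip3, the NF-kB inhibitor A20, lay at 172 and 165 CPM in the controls, at 509, 336 and 336 with NFAT5 and at 346, 463 and 166 with CA-RIT NFAT1. The interferon target Irf1 lay at 119 to 240 CPM over the 8 libraries, with overlapping groups.

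Transcription factors known at cytokine genes, 22 tested of 22, gave 0 at an adjusted p of 0.05 in edgeR, DESeq2 or limma voom, and medians of 0.13, 0.14 and 0.04. At an unadjusted p below 0.05 in edgeR, 1 was higher and 1 lower with NFAT5, 2 were higher and 1 lower with CA-RIT NFAT1, and 0 differed between the vectors. Batf, an AP-1 family partner of IRF4, lay at 351 and 179 CPM in the controls, at 143, 94.5 and 140 with NFAT5 and at 146, 113 and 211 with CA-RIT NFAT1. Its log2 fold change of -1.21 ± 0.38 with NFAT5 (SE; edgeR, adjusted p = 0.654) was -0.54 without eGFP control 3. Gata3, the factor of type 2 cytokine genes, lay at 20.3 and 46.6 CPM in the controls and at 57.1 to 80.8 CPM in the 6 vector libraries. Egr2, induced by T cell receptor signals, was at 0 and 8.01 CPM in the controls, at 24.9, 58.6 and 63.2 with NFAT5 and at 14.0, 46.6 and 18.7 with CA-RIT NFAT1. As for Tnf, the 3 highest Egr2 values were in NFAT5 5, NFAT5 8 and CA-RIT NFAT1 4. Gata3 and Junb of the same list had their 3 highest values there too. The share of all genes that did so was not computed.

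Markers of the sorted cells and of their neighbours moved between libraries as well. The 10 T cell markers summed to 33469 and 42184 CPM in the controls, to 27022 to 28535 with NFAT5 and to 28580 to 33991 with CA-RIT NFAT1, with all 10 read in each of the 8 libraries. Most of the sum was Trbc2, at 25613 and 22364 CPM in eGFP control 3 and 6 and 15593 to 17206 with NFAT5. Of the 10, 4 (Cd3d, Cd3g, Trbc2 and Cd2) were lower in every NFAT5 library than in either control, as were 8.15% of all genes tested. Cd3e, Cd5, Cd8a, Cd8b1, Trac and Lck overlapped. The 10 mast cell and P511 markers summed to 56.6 to 248 CPM in the controls, 150 to 265 with NFAT5 and 79.2 to 220 with CA-RIT NFAT1, with Tpsb2 and Fcer1a at 0 in the 8. The 8 dendritic cell markers summed to 1031 CPM in eGFP control 3 and to 106 to 171 CPM in the other 7. In eGFP control 3 this was mostly the class II genes H2-Ab1 (454 CPM) and Cd74 (565 CPM), while Flt3, Xcr1 and Siglech lay at 3.53, 8.63 and 0.52 CPM and Zbtb46, Cd209a and Clec9a at 0. Col1a1, Col1a2 and Dcn of fibroblasts were at 0 in the 8. The part of these cells in the cytokine values was not tested.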

How the data were processed

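Per the submitters' processing notes, Salmon 0.14.1 was used and the builds GRCm38.p6 and mm10 are named. Per the labels' protocols, tumours were digested with collagenase I and DNAse, T cells were enriched on Ficoll, and libraries came from a Clontech kit. The deposited tables hold Salmon's estimated counts per transcript, per the file headers, and these were the basis of every test. The deposited TPM values, per the file headers, were used to compare levels between genes. The deposited effective lengths, in bases and in a column apart from any expression unit, entered only the alternative with an average transcript length offset. How reads were trimmed is not given in the sources used here.

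GENCODE M21 held 139966 of the 140919 transcripts, and the other 953, with no more than 0.292% of any library's reads, were not used. Estimated counts were summed per gene and rounded to whole numbers. CPM divide a gene's reads by all matched reads of the library. Libraries with under 1 M reads or under 50 CPM of Cd8a were set aside, which left 8 of 10. Genes were tested with edgeR 4.0.16 (R 4.3.3, quasi-likelihood, TMM scaling, default low-count filter, all 3 groups in 1 fit, Benjamini-Hochberg adjustment over all genes tested), after a check on simulated data. An SE is that of the log2 fold change implied by its test. Alternatives were DESeq2 1.42.0, limma 3.58.1 voom with quality weights, all 10 libraries, other scalings and filters, fits of the compared groups alone, a transcript length offset, and each library left out.

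The 10 members and the gene lists were chosen with earlier results of these data known. Named from the lists were up to 3 genes per list and comparison, those with the smallest p, and Adam17 and Irf1 were added after their values were seen. Promoters came from RefSeq windows on GRCm38.p6, matched by symbol. Replicate numbers are not shared between groups, so no pairing was used.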

Additional observations from a re-analysis of the deposited data

Results flagged for a closer look

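Over all 4 CA-RIT NFAT1 libraries, each library was tested against the rest of its group on log2(CPM + 1), and chance alone marks about 1 in 20 groups by this measure. Library CA-RIT NFAT1 10 had 0 CPM of Ifng, against 306 to 388 CPM in the other 3. It had 18.19 CPM of Ltb, against 422 to 697 CPM. Its Cd8a count was 1 read, and its Cpa3 level was 1859 CPM. Il2 in CA-RIT NFAT1 9 lay at 0.6738 CPM, or 19 reads, against at most 1 read in the other 3.

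In the set-aside library CA-RIT NFAT1 10, Lta and Tgfb1 lay above every eGFP control library. The share of all genes that did so was not computed, and the library held 1 Cd8a read. Lta was at 13.6 CPM there, against at most 10.4 CPM in the controls. Tgfb1 was at 128.5 CPM, against at most 99.1 CPM in the controls and 113 to 162 CPM in the other CA-RIT NFAT1 libraries.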

How the results depend on the processing

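Each of the 27 fold changes of the 9 tested members was recomputed under 17 alternatives, 8 of which leave out 1 library. Of 453 values, 431 kept their direction and their side of an adjusted p of 0.05, 15 reversed and 7 came to pass it, and 19 fold changes never reversed. Of 60 group levels taken with a pseudocount of 0.25 CPM or from TPM, 21 moved by more than 1 SD. DESeq2 called 104, 60 and 1 genes in NFAT5 against control, CA-RIT NFAT1 against control and CA-RIT NFAT1 against NFAT5, 38 for any difference between the groups, and 1 member (Tnf with NFAT5). With each library left out, genes called ran from 0 to 3294 for NFAT5 and 0 to 3410 for CA-RIT NFAT1 against control, and from 0 to 2374 for any difference, and members called ran from 0 to 4, 0 to 2 and 0 to 2. Every nonzero count there came without eGFP control 6, which leaves eGFP control 3 as the lone control, assumed to vary like the other groups. In that fit Il16 turned to 0.14 and 0.26 against control, from a leave-one-out low of -0.62 and -0.52, and without eGFP control 3 Csf1 turned to -0.080 with NFAT5, from a high of 1.23. Between the vectors, the leave-one-out ranges that crossed zero were -0.13 to 0.16 for Ifng, -0.041 to 0.52 for Csf1, -0.37 to 0.71 for Lta and -0.077 to 0.31 for Il16. Over all 10 libraries the same comparison turned for Ifng (-0.39), Csf1 (-0.12), Ltb (-0.071) and Il16 (-0.067), and limma voom gave -0.079 for Ifng. The cause was not tested. The stricter filter dropped Csf2 and Lta. With Il2 at 0 to 19 reads and Csf2 at 10 to 198, depth limits those genes. No paired analysis was possible because the groups share no replicate numbers.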
